A study of Homo sapiens with 12 samples.

Results

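The integrin subunits described here are 10 genes, chosen by symbol from the 26485 genes of the deposited expression table. They are the alpha subunits ITGA2, ITGA3, ITGA6 and ITGAV and the beta subunits ITGB1, ITGB3, ITGB4, ITGB5, ITGB6 and ITGB8. All 10 were in the table, and 9 passed the filter on low values (a normalised read count of 1 or more in 3 or more libraries) that left 13794 genes to be tested. ITGB3 did not pass, and ITGB8 passed only through its Control libraries.

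The mRNA came from BT474, an epithelial line from a HER2-amplified luminal breast cancer, during exposure to lapatinib, which blocks the kinases of HER2 and EGFR. The cells were of WT genotype, grew in RPMI with 10% fetal bovine serum, and received lapatinib at 1 µM. There were 4 groups of 3 libraries: Control (day 0), drug-tolerant persisters (DTP, day 9), drug-tolerant expanding persisters (DTEP, month 6) and long-term resistant cells (LR, month 9). The Control libraries carry the same lapatinib label as the others and were taken as untreated because they are titled as controls of day 0. The libraries of a group came from plates kept in parallel and are called technical replicates by the study, so SDs and p-values cover the spread between libraries of a single course of treatment in a single line.

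Integrins are surface receptors in which 1 alpha subunit pairs with 1 beta subunit to hold the cell to its matrix and to signal inward through focal adhesions. The alpha chain largely sets the ligand. In epithelium ITGA2 with ITGB1 binds collagens, ITGA3 with ITGB1 and ITGA6 with ITGB1 or ITGB4 bind laminins of the basement membrane, and ITGB4 anchors hemidesmosomes. ITGAV pairs with ITGB1, ITGB3, ITGB5, ITGB6 or ITGB8 to bind ligands with an Arg-Gly-Asp motif, and the pairs with ITGB6 and ITGB8 release active TGF-beta from its latent form.

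Depth was 16383363 to 25030482 assigned reads per library, and a single read was worth 0.0412 to 0.0576 normalised read counts (reads scaled to a fixed library total after trimmed-mean correction). The luminal list (ERBB2, EPCAM, KRT8, KRT18, KRT19, GATA3 and FOXA1) was present throughout, with sums of 9790 to 10498 in Control and 12334 to 14895 in DTP libraries, and lower sums in DTEP (5093 to 6595) and LR (4597 to 6149). ERBB2 had the highest mean of the list in Control (6526) and in LR cells (1774). KRT8 (987 in Control and 351 in LR cells), KRT18 (651 and 426) and KRT19 (1122 and 444) also had lower means in LR cells. GATA3 (190 and 1251), FOXA1 (394 and 799) and EPCAM (205 and 246) had higher means in LR cells than in Control. The platelet markers PF4 and PPBP had no read in any library. In the list of 5 leukocyte markers 4 stayed below 1 in every library, and LYZ, lysozyme, carried the sum, which was 0.932 to 1.79 in Control and 3.22 to 4.84 in DTP, and at most 1.53 in DTEP and 0.388 in LR libraries. Of the 6 fibroblast markers 5 stayed below 1 in every library, and COL1A1 gave the rest of that sum (48.1 to 130). Across all tested genes, DTP replicate 3 was the DTP library nearest to the Control mean for 61.7% and DTEP replicate 3 was the DTEP library nearest to the LR mean for 65%. These are bulk libraries, in which fewer cells of a type and less RNA per cell cannot be told apart.

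Across the treatment, ITGA2, ITGA6 and ITGAV fell in DTP cells and rose past their starting level later, whereas ITGA3 rose in DTP cells and fell back. ITGB1 fell in DTP cells and stayed below Control, ITGB6 fell in steps to low levels, as did the scarce ITGB8, and ITGB4 had its highest mean in DTEP cells. The ranges of the 4 group means on the log2(value + 1) scale were 5.00 for ITGA6, 4.30 for ITGA2, 3.83 for ITGB6 and 3.39 for ITGAV, against 1.05 to 1.61 for ITGA3, ITGB1, ITGB4, ITGB5 and ITGB8.

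**Figure D1:**
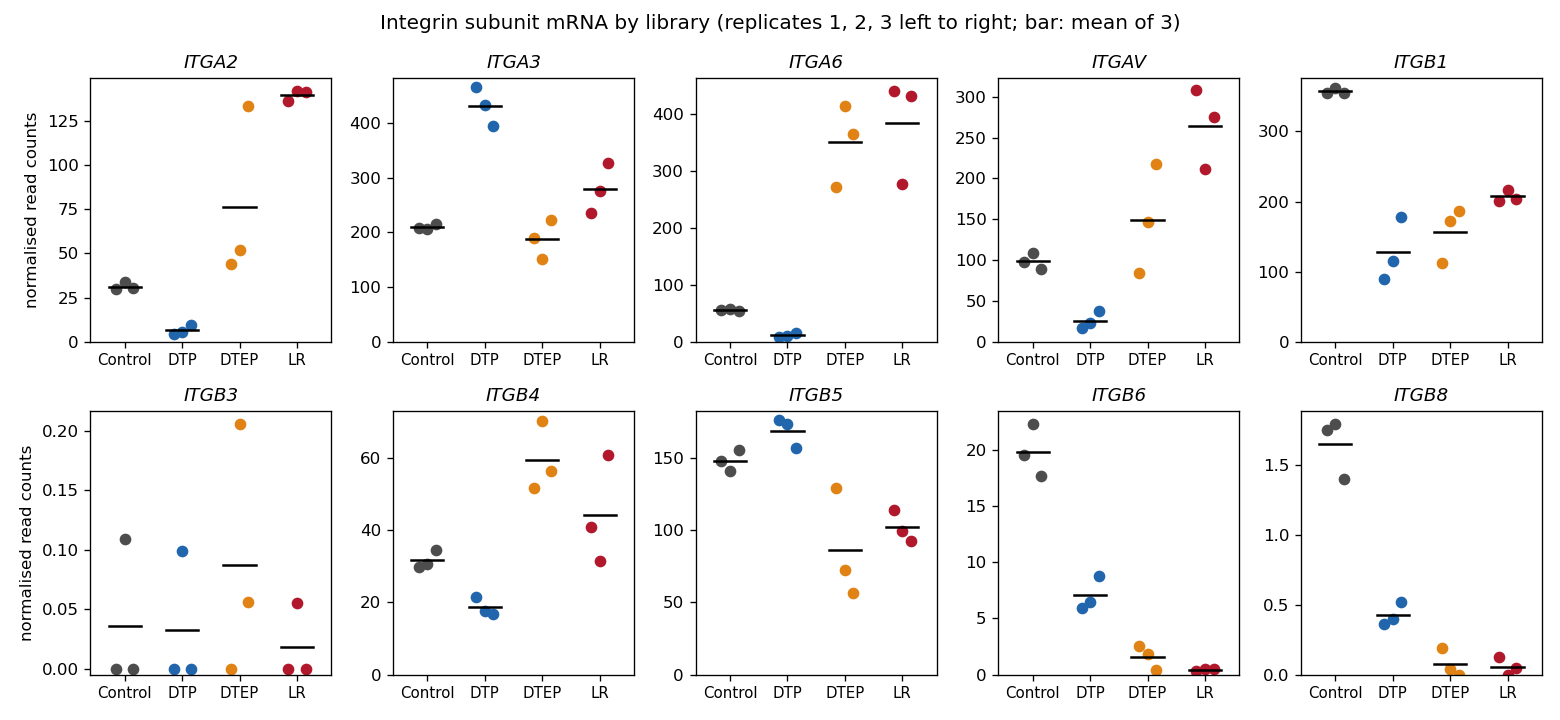
Normalised read counts (y axis, linear, a scale of its own in each panel) of the 10 integrin subunits in the 12 libraries, with points for replicates 1 to 3 of Control, DTP, DTEP and LR cells and a bar at the group mean. ITGA2, ITGA6 and ITGAV dip in DTP cells and are highest in DTEP or LR cells, ITGA3 peaks in DTP cells at 395 to 466, and ITGB6 and ITGB8 descend from Control to LR cells.

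The laminin receptor subunit ITGA6 (Entrez 3655, GRCh38.p14 chromosome 2, 172427336 to 172506459, plus strand) had the widest range. Its normalised read counts were 55.9, 56.7 and 53.2 in Control, 8.19, 10.3 and 14.7 in DTP, 271, 414 and 365 in DTEP and 440, 277 and 431 in LR libraries. Every DTP library lay below every Control library and every DTEP and LR library above them, while DTEP and LR libraries overlapped. By limma, ITGA6 fell by 2.26 ± 0.23 (SE) on the log2 scale in DTP against Control (adjusted p = 1.34e-05). It then rose by 4.88 ± 0.23 in DTEP against DTP (adjusted p = 8.84e-09), from a mean of 11 ± 3.32 (SD, n = 3) to 350 ± 72.6 or 31.7-fold. LR and DTEP cells differed by 0.12 ± 0.23 (adjusted p = 0.722), and LR cells stood 6.93-fold above Control (log2 change 2.74, adjusted p = 7.56e-07). Exons of ITGA6 share 125 bases with ITGA6-AS1 and 52 with PDK1-AS1, antisense genes that the table does not list, and the counting, at default settings, is not stated to have used strand.

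ITGB4, the partner of ITGA6 in hemidesmosomes (Entrez 3691, chromosome 17, 75721459 to 75757818, plus strand), moved less. Its values were 29.8, 30.7 and 34.6 in Control, 21.4, 17.7 and 16.8 in DTP, 51.5, 70.1 and 56.3 in DTEP and 40.7, 31.3 and 60.7 in LR libraries. DTP libraries were lowest without overlap, DTEP libraries all lay above Control, and LR libraries overlapped both Control and DTEP. ITGB4 fell in DTP against Control (log2 change -0.74 ± 0.22, adjusted p = 0.0129) and rose 3.18-fold in DTEP against DTP (1.61 ± 0.22, adjusted p = 3.59e-05). LR against Control gave 0.42 (adjusted p = 0.111), and without LR replicate 2 this was 0.64 (adjusted p = 0.0194).

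ITGA6 and ITGB4 are also abundant in basal epithelium, so markers of that cell type are given beside them. TP63, a transcription factor of basal cells, had 5.52, 5 and 4.29 normalised read counts in Control, 0.365, 0.839 and 1.15 in DTP, 5.79, 28.8 and 11.1 in DTEP and 45.7, 65.6 and 16.4 in LR libraries. The other 4 basal or myoepithelial markers, KRT5, KRT14, KRT17 and ACTA2, stayed below 1 in every library. The summed list was lowest in DTP libraries (0.418 to 1.32), then Control (4.33 to 5.84), then DTEP (6.12 to 28.9), and highest in LR libraries (17.4 to 65.7). The part of such cells in the change of ITGA6 and ITGB4 was not tested.

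ITGA3, the other laminin-binding alpha subunit (Entrez 3675, chromosome 17, 50056110 to 50090481, plus strand), moved in the opposite direction. Its values were 208, 206 and 216 in Control, 466, 433 and 395 in DTP, 189, 151 and 223 in DTEP and 235, 276 and 327 in LR libraries. The DTP libraries were highest without overlap, and Control and DTEP libraries overlapped. ITGA3 rose by 1.03 ± 0.16 in DTP against Control (adjusted p = 0.000256), from 210 ± 5.2 (SD, n = 3) to 431 ± 35.7, and fell by 1.21 ± 0.16 in DTEP against DTP (adjusted p = 3.3e-05). LR against Control gave a log2 change of 0.40 ± 0.16 (adjusted p = 0.0473), which passed in 4 of the 12 fits that left out a library and was weakest without LR replicate 3 (0.28, adjusted p = 0.176).

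ITGA2, the collagen-binding alpha subunit (Entrez 3673, chromosome 5, 52989352 to 53094779, plus strand), fell in DTP cells and rose afterwards. Its values were 29.8, 33.5 and 30.2 in Control, 4.49, 5.43 and 9.21 in DTP, 43.9, 51.7 and 133 in DTEP and 136, 142 and 141 in LR libraries. No groups overlapped, and DTEP replicate 3 stood beside the LR libraries while the other 2 DTEP libraries were nearer to Control. ITGA2 fell by 2.17 ± 0.34 in DTP against Control (adjusted p = 0.000276), and by 1.99 without DTP replicate 1 (adjusted p = 0.00217), just short of the threshold on size. It rose 11.9-fold in DTEP against DTP (log2 change 3.26 ± 0.34, adjusted p = 4.78e-06), and by 2.77 without DTEP replicate 3. The mean in LR cells, 140 ± 3.16 (SD, n = 3), was 4.48-fold that of Control (log2 change 2.13 ± 0.34, adjusted p = 0.000181).

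ITGAV, the alpha subunit shared by the Arg-Gly-Asp receptors (Entrez 3685, chromosome 2, 186590056 to 186680901, plus strand), followed the same course with a smaller range. Its values were 97.3, 109 and 89.4 in Control, 16.5, 22.7 and 37.2 in DTP, 83.6, 147 and 218 in DTEP and 308, 211 and 275 in LR libraries. DTP libraries were lowest without overlap, LR libraries all lay above Control, and the DTEP libraries spread across both. ITGAV fell by 1.98 ± 0.33 in DTP against Control (adjusted p = 0.000394), a change that passed a log2 size of 2 without DTP replicate 3 (-2.29) or Control replicate 3 (-2.05). It rose 5.88-fold in DTEP against DTP (2.48 ± 0.33, adjusted p = 3.23e-05) and stood 2.69-fold above Control in LR cells (1.40 ± 0.33, adjusted p = 0.00271).

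ITGB1, the common beta subunit of the laminin and collagen receptors (Entrez 3688, chromosome 10, 32900318 to 32958230, minus strand), fell in DTP cells and stayed below its Control level. Its values were 355, 362 and 355 in Control, 89.2, 115 and 178 in DTP, 112, 172 and 186 in DTEP and 201, 217 and 204 in LR libraries. Control libraries were highest without overlap, and DTP and DTEP libraries overlapped. ITGB1 fell by 1.54 ± 0.23 in DTP against Control (adjusted p = 0.000208) and was still lower in LR cells (-0.78 ± 0.23, adjusted p = 0.011). LR cells stood 1.62-fold above DTP cells without overlap (0.75 ± 0.23, adjusted p = 0.0115). DTEP against DTP gave 0.32 ± 0.23 (adjusted p = 0.24), which became 0.59 without DTP replicate 3 (adjusted p = 0.0236) and 0.54 without DTEP replicate 1 (adjusted p = 0.0452).

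ITGB5, the vitronectin-binding partner of ITGAV (Entrez 3693, chromosome 3, 124761948 to 124901418, minus strand), had 148, 141 and 155 normalised read counts in Control, 176, 173 and 157 in DTP, 129, 72.6 and 56.8 in DTEP and 114, 99 and 92.3 in LR libraries. Control and DTP libraries did not overlap by a narrow margin, and DTEP and LR libraries all lay below both. DTP against Control gave 0.19 ± 0.23 (adjusted p = 0.522). ITGB5 then fell by 1.05 ± 0.23 in DTEP against DTP (adjusted p = 0.00153), and LR against Control gave -0.54 ± 0.23 (adjusted p = 0.0566). Without DTEP replicate 1 or 3, whose values enter the shared variance, that adjusted p was 0.00265 or 0.0155.

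ITGB6, an epithelial partner of ITGAV that activates latent TGF-beta (Entrez 3694, chromosome 2, 160099671 to 160200272, minus strand), fell at each of the first steps. Its values were 19.5, 22.3 and 17.7 in Control, 5.9, 6.42 and 8.81 in DTP, 2.58, 1.81 and 0.393 in DTEP and 0.338, 0.553 and 0.484 in LR libraries. Control, DTP and DTEP libraries did not overlap, and DTEP replicate 3 lay within the LR range. ITGB6 fell by 1.39 ± 0.29 in DTP against Control (adjusted p = 0.00182) and by 1.72 ± 0.29 in DTEP against DTP (adjusted p = 0.00022). LR cells had 28 reads over 3 libraries against 1215 in Control, a ratio of 43.9 in favour of Control with an exact 95% interval of 30.2 to 66.4 that covers counting error only (log2 change of LR against Control -3.83 ± 0.29, adjusted p = 3.35e-07). Among the 4 endothelial markers VWF had a similar course, at 7.77, 7.94 and 8.57 in Control, 2.35, 2.27 and 1.67 in DTP, 0.383, 0.0824 and 0.168 in DTEP and 0.0422, 0.166 and 0.145 in LR libraries. PECAM1, CDH5 and KDR stayed below 1 everywhere, the summed list was 8.14 to 8.94 in Control and 0.127 to 0.332 in LR libraries, and its part in the change of ITGB6 was not tested.

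ITGB8, the other partner that activates latent TGF-beta (Entrez 3696, chromosome 7, 20329766 to 20415754, plus strand), was scarce from the start. Its values were 1.75, 1.79 and 1.4 in Control, 0.365, 0.395 and 0.518 in DTP, 0.191, 0.0412 and 0 in DTEP and 0.127, 0 and 0.0484 in LR libraries. The Control libraries were highest and DTP libraries next, both without overlap, and DTEP and LR libraries overlapped. Control had 101 reads, DTP 24, DTEP 5 and LR 4 over 3 libraries each, and the ratio of Control to LR was 25.6 (exact 95% interval 9.68 to 95.6, counting error only). The filter on low values let ITGB8 in only because its Control libraries were high, which favours a fall from Control, so those tests are given without the filter. There limma gave log2 changes of -0.89 in DTP and -1.32 in LR cells, each against Control (adjusted p = 2.05e-05 and 3.31e-07), on a scale that understates changes of low values. Exons of ITGB8 share 132 bases with the antisense gene ITGB8-AS1, which the table does not list.

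ITGB3, the beta subunit known from platelets and osteoclasts (Entrez 3690, chromosome 17, 47253827 to 47313743, plus strand), had 0, 2 and 0 reads in Control, 0, 2 and 0 in DTP, 0, 5 and 1 in DTEP and 0, 1 and 0 in LR libraries. Only DTEP replicate 2 exceeded 3 reads, a limit worth 0.124 to 0.173 normalised read counts, so no difference was detectable at this depth.

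The stretch just upstream of the start site is shown for the 3 alpha subunits that fell and rose together and for ITGB6, which did not return, so that their base composition can be compared. RefSeq promoter entries (GRCh38.p14) were matched by Entrez identifier and by the start of the gene, so the most upstream start was used where a subunit had several. ITGA3, ITGB3 and ITGB4 had no entry, and no stretch was kept for ITGB1 and ITGB8. That of ITGB5 was kept but is not printed. Bases that any annotated exon covers were left out. Each is written 5′ to 3′ on the strand of the gene, and capitals mark a match to a searched motif. They lie at chr5:52989102-52989339 (plus strand), chr2:172427086-172427335 (plus), chr2:186589806-186590009 (plus) and chr2:160200314-160200522 (minus).
ITGA2 promoter stretch: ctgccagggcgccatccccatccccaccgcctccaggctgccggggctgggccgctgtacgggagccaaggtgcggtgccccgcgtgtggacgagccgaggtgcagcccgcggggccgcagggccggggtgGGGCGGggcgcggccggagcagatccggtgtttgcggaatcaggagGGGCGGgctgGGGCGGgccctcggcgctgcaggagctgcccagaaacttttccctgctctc
ITGA6 promoter stretch: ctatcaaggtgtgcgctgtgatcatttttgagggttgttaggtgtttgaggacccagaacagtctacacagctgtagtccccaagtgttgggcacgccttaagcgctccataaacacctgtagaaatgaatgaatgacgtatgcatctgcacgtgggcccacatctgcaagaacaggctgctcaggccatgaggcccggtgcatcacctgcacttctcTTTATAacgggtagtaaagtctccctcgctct
ITGAV promoter stretch: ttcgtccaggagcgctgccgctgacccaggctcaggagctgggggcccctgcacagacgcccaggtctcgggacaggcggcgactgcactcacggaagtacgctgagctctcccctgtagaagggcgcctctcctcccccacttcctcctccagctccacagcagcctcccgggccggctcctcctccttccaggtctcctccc
ITGB6 promoter stretch: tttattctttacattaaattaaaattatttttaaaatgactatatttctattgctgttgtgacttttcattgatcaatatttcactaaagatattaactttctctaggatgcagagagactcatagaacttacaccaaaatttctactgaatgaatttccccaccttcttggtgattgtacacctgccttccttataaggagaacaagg
The motifs searched on both strands were the GC box GGGCGG, the AP-1 site TGANTCA, the TEAD site GGAATG and the TATA box TATAAA, none of which overlap here. The ITGA2 stretch held 3 GC boxes and 75.6% G or C with 24 CpG dinucleotides. The ITGB5 stretch, not printed, held 2 GC boxes and 52.8% G or C with 9 CpG dinucleotides. The ITGA6 stretch held a single TATA match, on the reverse strand, and 50.8% G or C, and the ITGAV stretch held none of the 4 motifs at 69.1% G or C. The ITGB6 stretch held none of them, no CpG and 30.1% G or C, and only 1.75% of 35116 promoter windows of 250 bases had a lower share (median 58%). GC boxes occurred in 42.6% of those windows, AP-1 sites in 6.57%, TEAD sites in 11.9% and TATA boxes in 10.7%. The 3 alpha subunits that moved together thus had no motif of this set in common in these stretches.

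A call required a log2 change of more than 2 in size together with an adjusted p under 0.05, the 2 thresholds the study used. In DTP against Control, 2 of the 9 tested subunits were called lower (ITGA2 and ITGA6), against 3.9% of all tested genes, and by limma 0 were called higher, against 1.01%. By the adjusted p alone 7 of 9 fell (background 28.8%) and ITGA3 rose (background 25.2%), and the same 8 had an unadjusted p below 0.05. Here and in the other comparisons with Control, the subunits that fell at the adjusted p include ITGB8, whose entry through Control favours that direction. All 9 had groups without overlap, as did 77.3% of all tested genes. The median log2 change was -1.39 over the 9 and -0.01 over all tested genes.

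In DTEP against DTP, ITGA2, ITGA6 and ITGAV were called higher, 3 of 9 against a background of 8.13%. No subunit was called lower by limma (0 of 9, background 7.02%, and 0 also with an unadjusted p), whereas edgeR and DESeq2 on the whole reads each called 2, ITGB6 and ITGB8. Of the 13794 tested genes edgeR called 1694 lower and DESeq2 1813, against 969 by limma. At the adjusted p alone 4 rose (background 35.7%), which adds ITGB4, and 4 fell (background 32.6%), namely ITGA3, ITGB5, ITGB6 and ITGB8. Groups did not overlap for 8 of 9 (background 67.3%), all but ITGB1. The median was 0.32 against 0.08 over all tested genes.

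In LR against DTEP, none of the 9 passed limma's adjusted p in either direction, where 3.04% of all tested genes rose and 4.31% fell, and 0 were called (background 0.225% higher and 0.457% lower). At an unadjusted p below 0.05, 3 were higher (ITGA2, ITGA3 and ITGAV) and 1 lower (ITGB6). Using edgeR and DESeq2, the adjusted p alone passed ITGA3 (0.0433 and 0.00937) and ITGB6 (0.0428 and 0.00706). Limma itself passed ITGA3 with a pseudocount of 0.1 (0.0469) or 0.5 (0.0498) and with median-of-ratios scaling (0.0457), so ITGA3 passed in 5 of the 10 settings other than leaving out a library. These results changed when single libraries were left out. Without DTEP replicate 3, which lay near the LR libraries, limma gave LR against DTEP a log2 change of 1.53 for ITGA2 (adjusted p = 0.000301), 1.23 for ITGAV (0.00729), 0.71 for ITGA3 (0.00278) and -1.12 for ITGB6 (0.000935). Without DTEP replicate 1 ITGB5 gave 0.65 (adjusted p = 0.0421), and without LR replicate 3 ITGB4 gave -0.70 (adjusted p = 0.0456). Groups did not overlap for ITGA2, ITGA3 and ITGB1, 3 of 9 against 22.5% of all tested genes.

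In LR against Control, which spans the whole course, ITGA2 and ITGA6 were called higher (2 of 9, background 5.03%) and ITGB6 lower (1 of 9, background 7.8%). At the adjusted p alone 4 of 9 rose, adding ITGA3 and ITGAV (background 30.2%), and 3 fell, adding ITGB1 and ITGB8 (background 32.6%). Groups did not overlap for 8 of 9, all but ITGB4, as for 77% of all tested genes.

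The remaining pairs of groups were tested for the order of levels. In DTEP against Control ITGA6 was called higher (1 of 9, background 4.43%; log2 change 2.62, adjusted p = 1.37e-06) and ITGB6 lower (1 of 9, background 6.2%; -3.11, adjusted p = 2.39e-06). At the adjusted p alone ITGA2, ITGA6 and ITGB4 rose (3 of 9, background 29.5%) and ITGB1, ITGB5, ITGB6 and ITGB8 fell (4 of 9, background 28.7%), and groups did not overlap for 7 (background 65.6%). In LR against DTP ITGA2, ITGA6 and ITGAV were called higher (3 of 9, background 9.46%) with log2 changes of 4.30, 5.00 and 3.39, and ITGB6 lower (1 of 9, background 8.42%) at -2.45. On the adjusted p alone, 5 rose (background 36.2%) and 4 fell (background 35.3%), so that every tested subunit differed between LR and DTP cells, and none overlapped (9 of 9, background 76.5%). All these comparisons share libraries, so their values are given side by side and not set against each other.

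**Figure D2:**
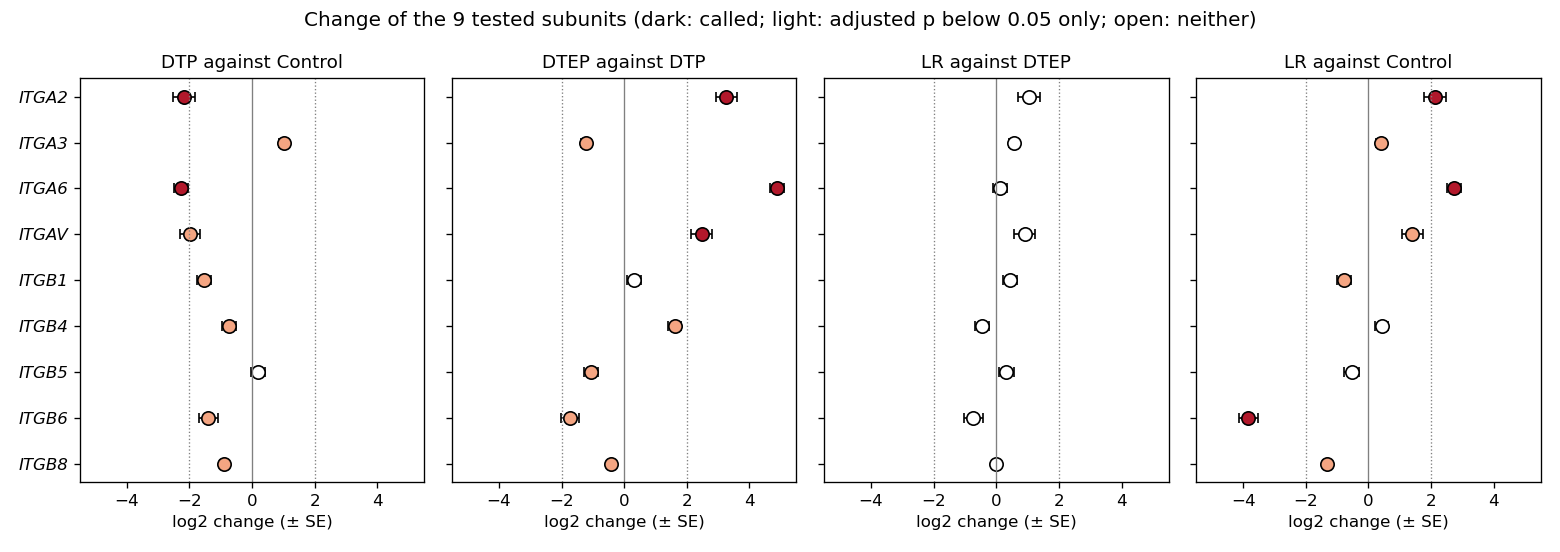
Log2 change on the log2(value + 1) scale (x axis, ± SE from limma) of the 9 tested integrin subunits in 4 comparisons, with dark points for called genes, light points for an adjusted p below 0.05 only, open points for neither, and dotted lines at changes of 2. ITGA6 reaches 4.88 in DTEP against DTP, all points are open in LR against DTEP, and ITGB6 reaches -3.83 in LR against Control.

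The order of group levels differed among subunits. ITGA2, ITGA6 and ITGAV ran from LR through DTEP and Control down to DTP, and for ITGA6 only LR and DTEP were neighbours that missed the adjusted p threshold. For ITGA2 the same pair missed the threshold (adjusted p = 0.0706), and DTEP exceeded Control (log2 change 1.08, adjusted p = 0.0168). For ITGAV neither LR and DTEP (adjusted p = 0.0867) nor DTEP and Control (0.216) passed. ITGB1 ran from Control through LR and DTEP to DTP, and only its first step, Control to LR, passed. ITGB6 ran from Control through DTP and DTEP to LR, and all but the last step passed. The means of ITGB8 had the same order, and its step from DTP to DTEP passed (adjusted p = 0.00801). That step rests on 24 reads in DTP and 5 in DTEP cells, so it is limited by depth. ITGB5 ran from DTP through Control and LR to DTEP with no neighbouring pair past the threshold.

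Levels of different subunits were compared after division by gene length in kb, with the union of all annotated exons and, as a second choice made after the data were seen, the canonical transcript. On both scales ITGB1 had the highest level in Control, ITGA3 in DTP, and ITGA6 in DTEP and LR cells. ITGA6 accounted for 3.5% of the summed per-kb level of the 4 alpha subunits in DTP cells, against 21.4% in Control, 59.2% in DTEP and 48.5% in LR cells (means of 3 libraries, exon union). With canonical lengths these shares were 2.03%, 13.5%, 46.8% and 36.6%. ITGA3 accounted for 92% in DTP cells (93.2% with canonical lengths) against 55.3% in Control and 22% in DTEP. The alpha pool thus passed from mostly ITGA3 in DTP cells to an ITGA6 share above that of ITGA3 in every DTEP and LR library on the exon-union scale, with the exception of LR replicate 2 on canonical lengths (31.3% against 37.1%).

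The balance of partner subunits moved as well. The per-kb ratio of ITGA6 to ITGB4 was 1.9, 1.87 and 1.56 in Control, 0.387, 0.588 and 0.884 in DTP, 5.32, 5.97 and 6.57 in DTEP and 10.9, 8.96 and 7.19 in LR libraries, so that ITGB4 exceeded ITGA6 in DTP cells only. The ratio of ITGB1 to the summed alpha subunits was 0.634 in Control against 0.186 in DTP cells, with 0.12 in DTEP and 0.124 in LR cells (1.36, 0.366, 0.322 and 0.316 with canonical lengths). Among the beta partners ITGB3, ITGB5, ITGB6 and ITGB8, ITGB5 held 86.5% in Control, and its share grew through 95.4% (DTP) and 98% (DTEP) until it was 99.4% in LR cells. Over the same groups the share of ITGB6 shrank from 13.1% through 4.52% and 1.9% to 0.515%. These ratios describe mRNA, with no test, and say nothing of assembled receptors.

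**Figure D3:**
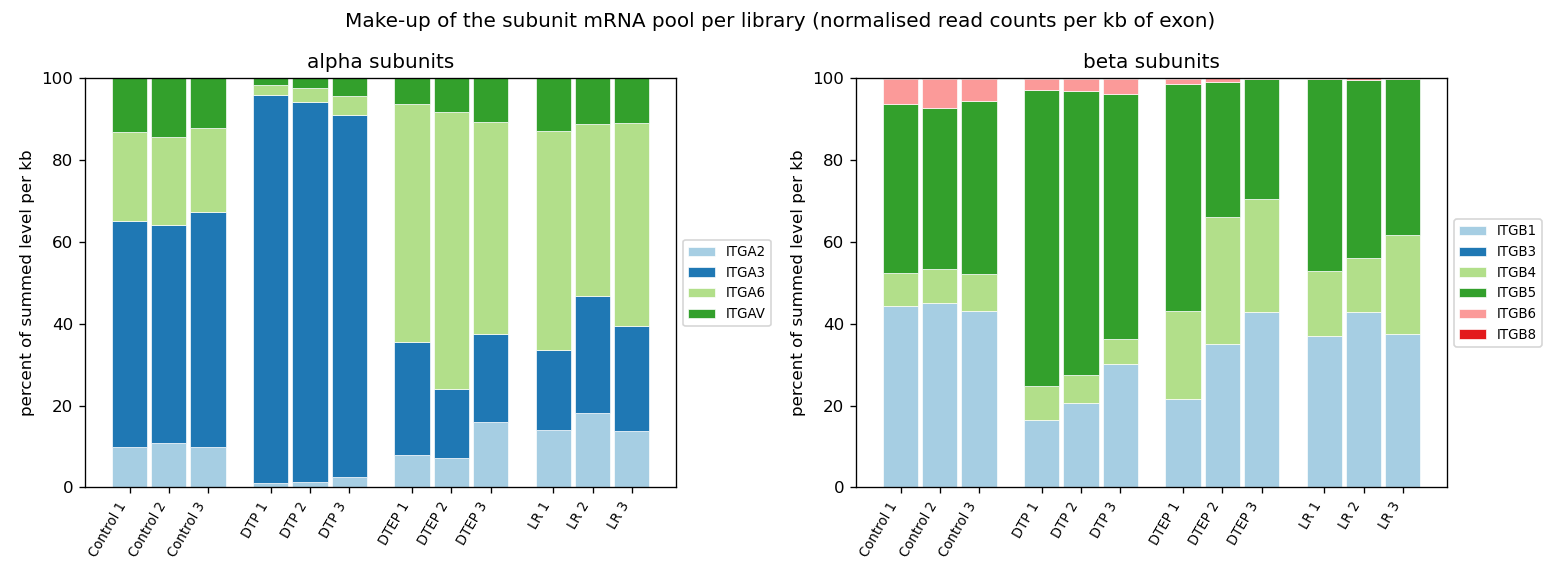
Percent of the summed level per kb of exon (y axis) held by each of 4 alpha subunits (left) and 6 beta subunits (right) in every library, from Control replicate 1 to LR replicate 3. ITGA3 fills 88.4% to 94.7% of the alpha bar in DTP libraries and ITGA6 42.1% to 67.7% in DTEP and LR libraries, while the ITGB6 band at the top of the beta bars thins from Control to LR.

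For ITGA6 and ITGA2, the subunits of widest range, the tested genes with the most similar profile were sought by the root-mean-square difference of log2 values over the 12 libraries, each gene centred on its Control mean. The nearest to ITGA6 were ABLIM1 (0.34), YBX2 (0.40) and SERTAD4 (0.43), where the median gene lay at 2.28. ABLIM1, an actin-binding LIM protein, had means of 297 in DTEP and 294 in LR cells, against 40.3 in Control and 11.4 in DTP. The nearest to ITGA2 were EDEM3 (0.26), SOGA1 (0.31) and PRKAR2A (0.32), with a median of 1.79. PRKAR2A, a regulatory subunit of protein kinase A, had means of 34.5 in DTEP and 55.9 in LR cells, against 15.7 in Control and 3.05 in DTP.

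Of the 16 other integrin subunits of the genome that were listed, 7 were tested. In DTEP against DTP 1 of them was called lower, ITGB7 (7.02% of all tested genes), and none higher (8.13%). This leukocyte-type beta subunit had 1.06, 1.36 and 1.54 normalised read counts in Control, 14, 14.4 and 11.4 in DTP, 0.813, 0.494 and 0.0561 in DTEP and 0, 0.0553 and 0.0969 in LR libraries, so it was raised in DTP cells without overlap and fell by 3.32 ± 0.19 afterwards (adjusted p = 4.04e-08). LYZ was also highest in DTP libraries, at 4.07, 4.79 and 3.22 against 1.06, 1.79 and 0.838 in Control (log2 change 1.18, adjusted p = 0.00184), and the part of leukocyte RNA in the level of ITGB7 was not tested. ITGA10, a collagen-binding alpha subunit named after its values were seen, rose in LR against Control from a mean of 1.14 to 5.76 (log2 change 1.63, adjusted p = 3.46e-05). Of the 7, 3 rose (35.7% of all tested genes) and 1 fell (32.6%) at the adjusted p alone in DTEP against DTP, and 2 rose (30.2%) and 1 fell (32.6%) in LR against Control. Those that rose include ITGA5 and ITGAL in DTEP against DTP, and ITGAL in LR against Control. Both genes stayed below 1 in every Control and DTP library. The filter on low values let them in only through DTEP and LR libraries, which favours a rise in these counts.

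The cytoplasmic adhesion machinery links integrin tails to actin and to kinases, and 32 of its 34 listed genes were tested. In DTEP against DTP 5 were called lower (7.02% of all tested genes) and 1 higher (8.13%), 14 of 32 fell (32.6% of all tested genes) and 8 rose (35.7%) at the adjusted p alone, and the median was -0.41 against 0.08 over all tested genes. The genes called lower were NEDD9, a scaffold of focal adhesions, the parvins PARVA and PARVB, the kinase SRC and the LIM protein ZYX, and the gene called higher was the talin TLN2, which rose from a mean of 20.8 to 148 (PARVA, ZYX and TLN2 were named after their values were seen). PARVB, which joins integrin-linked kinase to actin, went from 15.2, 15.6 and 12.8 in DTP to 1.29, 0.577 and 0.393 in DTEP libraries (log2 change -3.18, adjusted p = 5.32e-08). In LR against Control 3 of 32 were called lower, PARVB, SRC and NEDD9 (7.8% of all tested genes). The tensin TNS2, named after its values were seen, was the 1 gene called higher (5.03%). At the adjusted p alone 17 fell (32.6% of all tested genes) and 7 rose (30.2%), with a median of -0.55 against -0.03 over all tested genes. Normalised read counts of SRC in LR libraries were 0.127, 0.0553 and 0.194, against 13.2, 12.2 and 13.1 in Control.

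All 10 listed hemidesmosome and tetraspanin partners were tested. In DTEP against DTP only CD47 was called lower (1 of 10, 7.02% of all tested genes) and none higher (8.13%). CD47, an integrin-associated surface protein, fell from a mean of 267 to 37.2 (log2 change -2.97, adjusted p = 1.76e-05). At the adjusted p alone 3 of the list rose (35.7% of all tested genes) and 4 fell (32.6%). In LR against Control CD47 (-2.31, adjusted p = 0.000162) and COL17A1, the transmembrane collagen of hemidesmosomes, were called lower (7.8% of all tested genes), and 3 rose (30.2%) and 2 fell (32.6%) at the adjusted p alone. COL17A1 had 3.59, 3.21 and 2.98 normalised read counts in Control and no read in any LR library (adjusted p = 2.59e-07), whereas ITGA6 was called higher in the same comparison. Outside Control only DTP replicate 1 of COL17A1 reached a value of 1 (1.1). The filter on low values thus let COL17A1 in through Control, which favours a fall from Control in this test and in the counts above.

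Of 24 listed extracellular ligands 22 were in the table and 18 were tested. In DTEP against DTP 3 were called higher (8.13% of all tested genes) and 2 lower (7.02%), and at the adjusted p alone 7 of 18 rose (35.7%) and 7 fell (32.6%), shares near those of all tested genes. NPNT, nephronectin, an integrin ligand of basement membranes, was highest in LR cells, at 7.63, 7.72 and 8.06 in Control, 25.8, 32.6 and 38.1 in DTP, 158, 223 and 607 in DTEP and 766, 707 and 678 in LR libraries (LR against Control log2 change 6.35 ± 0.36, adjusted p = 3.18e-08). The laminin chain LAMB1 fell from a mean of 234 to 21.4 in DTEP against DTP (log2 change -3.56, adjusted p = 1.03e-05), and LAMB2 rose in LR against Control from 98 to 531 (2.42, adjusted p = 1.79e-05). TGFB3, whose latent form is among the ligands of ITGAV receptors, rose from 52.8 to 403 in DTEP against DTP (2.91, adjusted p = 2.08e-09), the comparison in which ITGB6 and ITGB8 fell. In LR against Control 2 ligands were called higher (5.03% of all tested genes) and 3 lower (7.8%). Also called were TNC (higher) in DTEP against DTP and LAMA3 and FN1 (lower) in LR against Control, named after their values were seen.

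**Figure D4:**
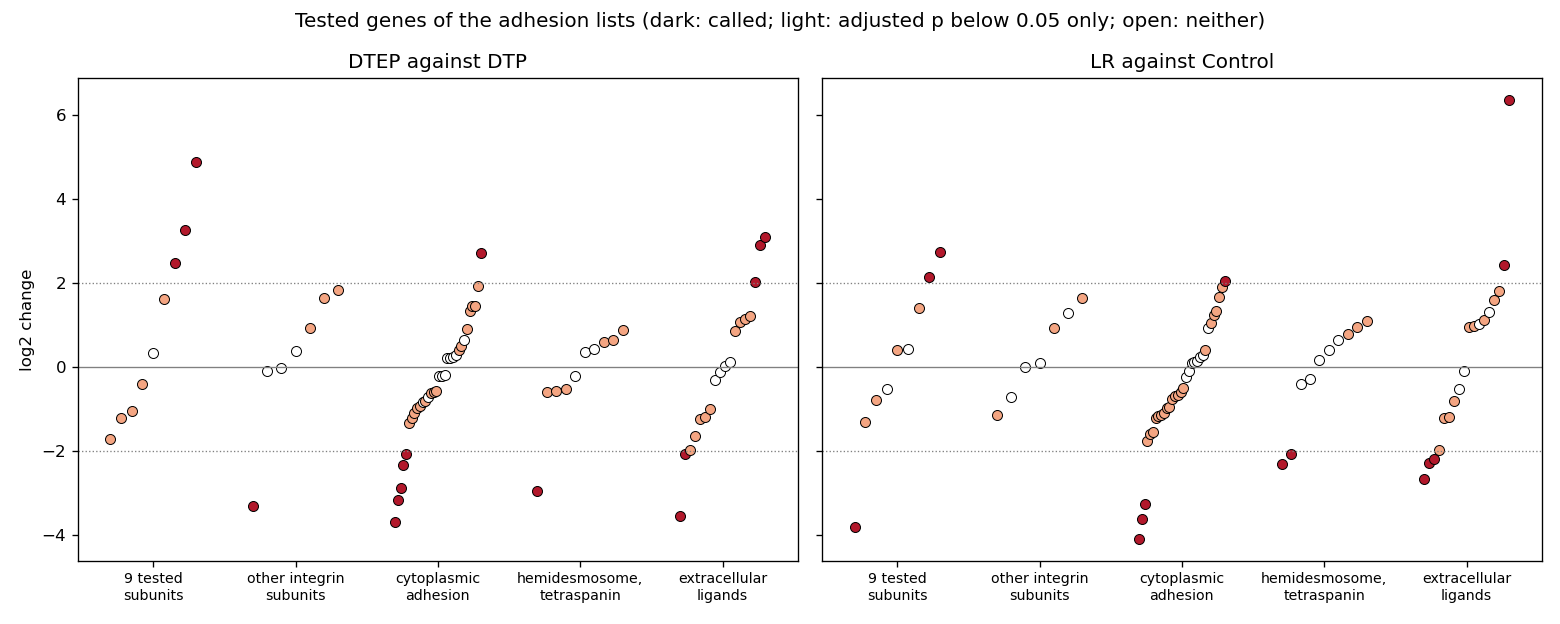
Log2 change on the log2(value + 1) scale (y axis) of each tested gene in DTEP against DTP (left) and LR against Control (right), grouped by list and sorted within it, with dark points for called genes, light points for an adjusted p below 0.05 only and open points for neither. ITGA6 is the top integrin point at 4.88 on the left, the cytoplasmic list reaches -3.71 for NEDD9 there, and NPNT stands at 6.35 on the right.

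The proliferation markers also moved between the groups in which ITGA2, ITGA6 and ITGAV moved. MKI67 had 221, 221 and 230 normalised read counts in Control, 2.19, 2.32 and 3.63 in DTP, 463, 604 and 622 in DTEP and 255, 207 and 413 in LR libraries. The summed list of 4 (MKI67, TOP2A, PCNA and MCM2) was lowest in DTP libraries (135 to 137). Sums in LR libraries (385 to 934) lay below those of Control (1182 to 1192) and DTEP (1276 to 1506). ITGA2 and ITGAV had higher means in LR than in DTEP cells, but neither difference passed limma's adjusted p (0.0706 and 0.0867). For ITGAV the LR and DTEP libraries also overlapped. The part of proliferation in the changes of the subunits was not tested.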

How the data were processed

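Stranded mRNA libraries were sequenced by the authors. Alignment to hg38 and assignment to gene models of RefSeq were done with the package Rsubread at its defaults, and the submitters' processing notes also name bcl2fastq and edgeR. The deposited table holds a normalised signal per gene and library. Dividing by the worth of 1 read gave whole numbers for 199680 of 199680 positive values (100%, largest distance from a whole number 1.2e-09), so whole reads were recovered, and the scale equalled CPM after TMM scaling (edgeR 4.0.16). Depth was 16383363 to 25030482 reads per library.

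log2(value + 1) was fitted with limma 3.58.1 (R 4.3.3, trended variances, no covariates) to all 12 libraries, for the 13794 genes that reached a value of 1 in 3 or more libraries. Tests were two-sided with Benjamini-Hochberg adjustment over all tested genes in each comparison, and calls needed a log2 change over 2 in size and an adjusted p under 0.05. The steps were tested on simulated reads. The replicate numbers were not taken as pairs. Correlations of deviations ran from -0.44 to 0.36 between same-numbered libraries and from -0.43 to 0.46 between the others. With 3 libraries a group these values cannot show whether the libraries were paired. Intervals cover counting error only.

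All 10 subunits are described. From the other lists, the 3 called genes of largest absolute change in each of DTEP against DTP and LR against Control were named, and the 3 nearest profiles to each of the 2 subunits of widest range. The members, lists and rules were chosen with earlier results of these data known, and a few listed genes are not reported here by name. Gene positions are those of RefSeq on GRCh38.p14, the build of hg38, and lengths those of GENCODE. The settings varied were the pseudocount (0.1 or 0.5), the filter (none, or a mean of 5), median-of-ratios scaling, no variance trend, only the 6 libraries compared, a replicate block, edgeR's quasi-likelihood test, DESeq2 1.42.0, a log2 change above 1, and each library left out.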

Additional observations from a re-analysis of the deposited data

How the results depend on the processing

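The counts of called subunits were refitted under 23 alternatives, which gave 184 counts, of which 171 stayed within 1.5 times the value reported. At an absolute log2 change above 1, DTP against Control had 1 subunit called higher and 5 lower, DTEP against DTP had 3 lower and LR against Control had 2 lower. In DTEP against DTP, where 0 were called lower, a pseudocount of 0.1 or of 0.5 gave 1 (ITGB6) and edgeR and DESeq2 each gave 2 (ITGB6 and ITGB8). Over all 13794 tested genes these settings called 1675, 1258, 1694 and 1813 lower, against 969 in the fit reported. In LR against Control, where 1 was called lower, a pseudocount of 0.1, edgeR and DESeq2 each gave 2, since ITGB8 passed the size there. Over all 13794 tested genes these settings called 1718, 1713 and 1723 lower, against 1076 in the fit reported. ITGB8 passed the filter only through its Control libraries, which favours a fall from Control. Leaving out each library gave 1 to 3 called lower in DTP against Control (1 without DTP replicate 1, and 3 without DTP replicate 3 or Control replicate 3) and 0 to 1 called lower in DTEP against DTP (ITGB6 at -2.01 without DTEP replicate 1). The called counts of the other 6 did not move in those fits, and stood at 3 higher in DTEP against DTP and 2 higher and 1 lower in LR against Control.

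For single subunits 796 of 824 refitted changes kept direction and side of the call, and 3 turned direction, all in LR against DTEP and all far from the threshold. For ITGA6 log2 change, LR against DTEP, leaving out each library gave -0.0527 (without DTEP replicate 1) to 0.34. ITGB8 gave -0.0753 to 0.051, the latter without DTEP replicate 1, and 0.0166 without LR replicate 2. ITGB8 gave no value with the filter at a mean of 5. With the replicate block the calls were those reported, with 2 lower in DTP against Control, 3 higher in DTEP against DTP, and 2 higher and 1 lower in LR against Control. At the adjusted p alone, in LR against Control, the block took ITGA3 to 0.0552 and ITGB5 to 0.0401.

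Median-of-ratios scaling shifted the log2 changes of the tested genes by a median of -0.104 in DTEP against DTP. The median shift was smaller in size elsewhere, and no subunit turned direction under this scaling. The fitted change of ITGB6 in LR against Control ran from -3.83 to -5.47 over the settings other than leaving out a library, and that of ITGB8 from -1.32 to -4.73, since both have few reads. The adjusted p of ITGA3 in LR against Control ran up to 0.0632 over those settings, and ITGB5 in DTP against Control passed only with the 6 libraries compared (0.048). Values from 3 reads or fewer, as for ITGB3 and ITGB8, are limited by depth.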
